A study of Mus musculus with 6 samples.

Results

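The complement components and anaphylatoxin receptors described here are 9 genes taken by name: the C1q chains C1qa, C1qb and C1qc, the central component C3, properdin (Cfp), factor B (Cfb) and the receptors C3ar1, C5ar1 and C5ar2. All 9 were among the 57180 genes of the deposited table, and all 9 were among the 13260 that had enough counts to be tested. RNA was sequenced from macrophages that had been derived from the bone marrow of wild-type mice aged 6 to 8 weeks by 7 days in M-CSF, a macrophage growth factor, at 20 ng/mL. In 1 group of 3 libraries the cells received IL-4 at 20 ng/mL for 24 h, and in the other group of 3 they received IL-4 and CGRP, a neuropeptide of sensory nerves. Both groups carried IL-4 and M-CSF, and with no library of cells lacking IL-4 these data do not measure what IL-4 alone did. The labels leave the CGRP concentration ambiguous, and it is not printed. They also do not tell whether the replicates are separate cultures or animals, and p-values then cover only the spread between these libraries, which may be technical. In bulk samples, fewer cells of a type and less RNA per cell cannot be told apart.

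Complement is a cascade of plasma proteins that marks targets for uptake and lysis. C1q, built from A, B and C chains, starts the classical pathway and also binds dying cells. Macrophages are its main source. C3 is the component on which all pathways converge, factor B supplies the protease of the alternative pathway convertase, and properdin stabilises that convertase. The cleavage fragments C3a and C5a are anaphylatoxins, which act on the G protein-coupled receptors C3aR, encoded by C3ar1, and C5aR1, whereas C5aR2 binds C5a without the usual G protein coupling.

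Total counts ran from 20088895 to 24060444 per library. IL-4+CGRP replicate 2 stood apart from its group: its correlation across genes (Pearson, log2 of CPM, the counts of a gene relative to the TMM-scaled library total) was 0.9882 with IL-4 replicate 1, against 0.9876 and 0.9869 with IL-4+CGRP replicates 1 and 3. Libraries also differed in how levels ran with gene length. The slope of log2 CPM per doubling of length was -0.056 in IL-4 replicate 1 and -0.071 in IL-4+CGRP replicate 2, against 0.052 and 0.055 in IL-4+CGRP replicates 1 and 3. IL-4 replicates 2 and 3 lay between these, at 0.0079 and 0.012. Results are therefore also given without IL-4+CGRP replicate 2 and with the length trend of each library removed. Without IL-4+CGRP replicate 2, every IL-4+CGRP slope lay above every IL-4 slope. In that fit, length trend and group cannot be told apart. The RNA quality value in the sample records used here is a minimum RNA quality number of 6.5, the same for each library. Whether RNA quality differed between libraries was not tested. Of the macrophage markers, 10 of 10 were tested, and their summed level was 14430 to 14670 CPM in IL-4 and 14680 to 15060 CPM in IL-4+CGRP. Of the 10, 2 were called higher, Itgam and Cd14 (1.53-fold, edgeR adjusted p = 5.91e-04), and 0 lower.

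The regions just upstream of the start sites of Cfp and C5ar1 are shown because these were the genes that rose, with that of C3ar1 for the other G protein-coupled anaphylatoxin receptor. Each is the 250 bases before the annotated start, from RefSeq on GRCm38.p6, a different build from the one used for the counts, and all 3 genes lie on the minus strand. The windows are chrX:20931556-20931805 for Cfp, chr7:16259339-16259588 for C5ar1 and chr6:122856158-122856407 for C3ar1. Capitals mark a match to the AP-1 motif.
Cfp: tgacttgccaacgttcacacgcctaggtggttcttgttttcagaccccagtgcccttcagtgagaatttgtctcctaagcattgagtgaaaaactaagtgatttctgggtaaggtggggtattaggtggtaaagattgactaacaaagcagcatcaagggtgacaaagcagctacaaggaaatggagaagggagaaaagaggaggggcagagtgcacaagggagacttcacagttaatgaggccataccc
C5ar1: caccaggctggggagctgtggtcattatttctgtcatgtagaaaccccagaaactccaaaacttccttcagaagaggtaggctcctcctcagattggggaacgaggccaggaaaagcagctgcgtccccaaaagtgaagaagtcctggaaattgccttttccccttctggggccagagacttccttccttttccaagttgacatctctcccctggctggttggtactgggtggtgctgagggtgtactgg
C3ar1: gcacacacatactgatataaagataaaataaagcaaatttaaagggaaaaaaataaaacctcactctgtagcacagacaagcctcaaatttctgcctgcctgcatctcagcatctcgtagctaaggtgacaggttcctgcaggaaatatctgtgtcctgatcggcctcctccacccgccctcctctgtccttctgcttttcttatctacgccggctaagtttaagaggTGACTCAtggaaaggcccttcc

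These windows were searched on both strands for the cAMP response element TGACGTCA, the shorter TGACG that it contains, a STAT6-type motif (TTC and GAA set 4 bases apart) and the AP-1 motif TGANTCA. The Cfp and C5ar1 windows held none of the 4, which says only that these letters are not in these 250 bases. The C3ar1 window held TGACTCA from 22 to 16 bases before the start. Of 9 genes, 7 had a RefSeq window (8 windows, since C5ar2 has 2), and among the others C1qb held 1 TGACG and C5ar2 1 STAT6-type motif. Over all 32851 RefSeq windows of this length, 1.55% held TGACGTCA, 17.8% TGACG, 5.85% the STAT6-type motif and 6.75% TGANTCA. A match is a description of the letters and not evidence of binding.

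The comparison asks whether adding CGRP to IL-4 changed the expression of complement genes in these macrophages. Cfp and C5ar1 rose, by 1.34-fold and 1.19-fold, and 0 of the 9 genes fell by the edgeR quasi-likelihood test, with p-values adjusted over all tested genes by Benjamini-Hochberg. The other 7 did not pass: C3 and C5ar2 had higher group means and C1qa, C1qb, C1qc, Cfb and C3ar1 had lower ones. The 2 calls are 22.2% of the 9 genes, against 3.85% of all tested genes called in either direction (2.32% higher and 1.54% lower) and 9.27% of the 2050 tested genes with a mean of at least 100 CPM, a level that 8 of the 9 genes reached. At an unadjusted p under 0.05, 6 of the 9 genes passed, against 15.8% of all tested genes. DESeq2 and limma-voom each called 2 higher and 0 lower. The libraries of the 2 groups did not overlap in CPM for 7 of the 9 genes, 3 above and 4 below, against 21% of all tested genes (11.1% above and 9.92% below). Neither this share nor that for the unadjusted p was computed among the genes with a mean of at least 100 CPM. The median log2 fold change was -0.07 over the 9 genes and -0.0042 over all tested genes.

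**Figure D1:**
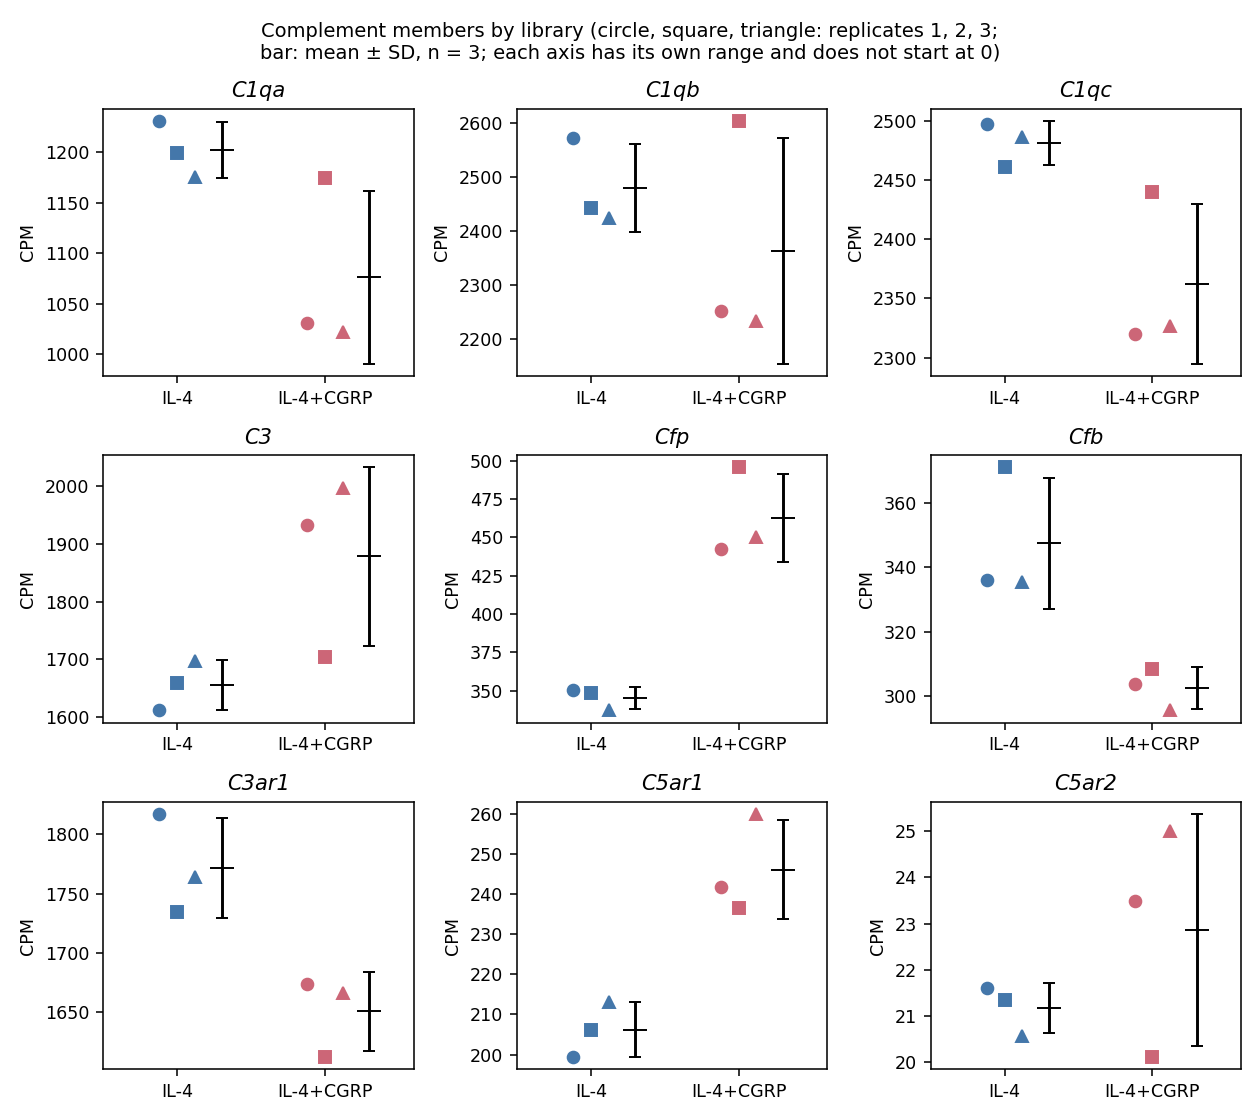
Level of each of the 9 genes in CPM (vertical axis, its own range in each panel, not starting at 0) in the 3 IL-4 and 3 IL-4+CGRP libraries, with the mean and SD of each group as bars. The points of the 2 groups are separate for every gene but C1qb and C5ar2. Within its group, IL-4+CGRP replicate 2 (square) sits farthest from the IL-4 libraries for Cfp and C3ar1, and nearest to them for the other genes.

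In the alternative pathway, Cfp (ENSMUSG00000001128) measured 350.2, 349 and 337 CPM in IL-4 replicates 1 to 3 and 442, 496 and 450.4 CPM in IL-4+CGRP replicates 1 to 3. Every IL-4+CGRP library lay above every IL-4 library, and replicate 2 was the highest. The means were 345 ± 7.16 and 463 ± 28.7 CPM (SD, n = 3), a log2 fold change of 0.42 ± 0.05 (SE; edgeR adjusted p = 7.5e-04). The 95% interval ran from 1.24-fold to 1.45-fold. The call held in all 17 alternative fits, with log2 fold changes of 0.37 to 0.46 and adjusted p of 1.07e-12 (no count filter) to 0.0175.

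Factor B had a lower mean in IL-4+CGRP and did not pass. Cfb (ENSMUSG00000090231) measured 336, 371 and 335 CPM with IL-4 alone, against 304, 308 and 296 CPM with IL-4+CGRP. The 2 groups did not overlap, and IL-4 replicate 2 was the highest of the 6. The log2 fold change was -0.20 ± 0.05 (SE; edgeR adjusted p = 0.059), with a 95% interval of 0.805-fold to 0.943-fold. It passed as lower without IL-4+CGRP replicate 2 (adjusted p = 0.0062), with the length trend removed (adjusted p = 0.011) and with no count filter (adjusted p = 0.01), and its fold change stayed below 0 in 17 of 17 alternatives.

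The count ratio of Cfp to Cfb, which needs no scaling between libraries, was 1.04, 0.94 and 1.01 with IL-4 alone, against 1.46, 1.61 and 1.52 with IL-4+CGRP. Properdin and factor B counts were thus about level in IL-4, and properdin counts were ahead in each IL-4+CGRP library. The counts are not set against length, which is 1636 bases for Cfp and 2737 for Cfb. Per kilobase, Cfp was ahead in IL-4 as well, at a mean of 211 against 127 CPM. The ratio also carries any length trend of its library. This ratio was chosen after its values were seen and has no test.

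C3 (ENSMUSG00000024164) measured 1612, 1659 and 1698 CPM with IL-4 alone, against 1933, 1704 and 1996 CPM with IL-4+CGRP. The groups were separate only narrowly, with IL-4+CGRP replicate 2 close to IL-4 replicate 3. The means were 1657 ± 43.1 and 1878 ± 154 CPM (SD, n = 3), a log2 fold change of 0.18 ± 0.06 (SE; edgeR adjusted p = 0.12). Without IL-4+CGRP replicate 2 it was 0.25 ± 0.04 (SE) and passed (adjusted p = 2.0e-04). With the length trend removed it was 0.15 ± 0.03 (SE) and passed (adjusted p = 0.014). With no count filter it also passed (adjusted p = 0.0028).

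Among the anaphylatoxin receptors, C5ar1 (ENSMUSG00000049130) measured 199, 206 and 213 CPM with IL-4 alone, against 242, 237 and 259.9 CPM with IL-4+CGRP. The groups were separate, and IL-4+CGRP replicate 3 was the highest. The means were 206 ± 6.86 and 246 ± 12.3 CPM (SD, n = 3), a log2 fold change of 0.25 ± 0.05 (SE; edgeR adjusted p = 0.02). The 95% interval ran from 1.1-fold to 1.29-fold. The call ended when any of the IL-4 libraries, or IL-4+CGRP replicate 1 or 3, was left out, with adjusted p of 0.084 to 0.13 and log2 fold changes of 0.21 to 0.27. It held without IL-4+CGRP replicate 2 (adjusted p = 6.17e-04) and with the length trend removed (adjusted p = 0.0026).

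C3ar1 (ENSMUSG00000040552) did not pass and had a lower mean. It measured 1817, 1734 and 1764 CPM with IL-4 alone, against 1674, 1612 and 1666 CPM with IL-4+CGRP, with no overlap. The log2 fold change was -0.10 ± 0.04 (SE; edgeR adjusted p = 0.2), with a 95% interval of 0.88-fold to 0.987-fold. It passed as lower only with the length trend removed, at -0.12 ± 0.03 (SE; adjusted p = 0.033).

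C5ar2 (ENSMUSG00000074361) was the lowest of the 9 genes. It measured 21.6, 21.4 and 20.6 CPM with IL-4 alone, against 23.5, 20.1 and 25.0 CPM with IL-4+CGRP. The groups overlapped, with IL-4+CGRP replicate 2 the lowest of the 6. The log2 fold change was 0.11 ± 0.09 (SE; edgeR adjusted p = 0.61), with a 95% interval of 0.941-fold to 1.24-fold. Some of its counts were not whole, so reads may have been shared with another gene.

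The count ratio of C5ar1 to C5ar2 was 9.23, 9.65 and 10.4 with IL-4 alone, against 10.3, 11.8 and 10.4 with IL-4+CGRP, with overlapping groups. The log2 ratio differed by 0.15 between groups (exact permutation test, two-sided, p = 0.2, adjusted p = 0.27 over 4 ratios). With 3 libraries a group this exact permutation test cannot go below p = 0.1.

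The C1q chains did not pass the edgeR test. C1qa (ENSMUSG00000036887) measured 1231, 1199 and 1176 CPM with IL-4 alone, against 1031, 1175 and 1023 CPM with IL-4+CGRP. The groups touched but did not overlap, since IL-4+CGRP replicate 2 lay just under IL-4 replicate 3. The log2 fold change was -0.16 ± 0.05 (SE; edgeR adjusted p = 0.16).

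C1qb (ENSMUSG00000036905) measured 2573, 2443 and 2425 CPM with IL-4 alone, against 2252, 2605 and 2233 CPM with IL-4+CGRP. The highest value of all 6 libraries was in IL-4+CGRP replicate 2 and the lowest 2 were in replicates 1 and 3 of the same group. The log2 fold change was -0.07 ± 0.06 (SE; edgeR adjusted p = 0.62), with a 95% interval of 0.871-fold to 1.04-fold.

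C1qc (ENSMUSG00000036896) measured 2497, 2461 and 2486 CPM with IL-4 alone, against 2320.0, 2440.3 and 2327 CPM with IL-4+CGRP, with no overlap. The log2 fold change was -0.07 ± 0.04 (SE; edgeR adjusted p = 0.38), with a 95% interval of 0.901-fold to 1.01-fold. The summed C1q level was 6302, 6103 and 6086 CPM with IL-4 alone, against 5603, 6220 and 5582 CPM with IL-4+CGRP.

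The C1q calls depended on which libraries entered the fit and on the length trend. Without IL-4+CGRP replicate 2, C1qa (log2 fold change -0.23, adjusted p = 4.8e-04) and C1qb (-0.15, adjusted p = 0.012) passed as lower. With the length trend removed, none of the chains passed, and the fold changes were -0.07 for C1qa (adjusted p = 0.282), 0.01 for C1qb and 0.0024 for C1qc. Without both libraries of negative slope, IL-4 replicate 1 and IL-4+CGRP replicate 2, each chain passed as lower in edgeR: C1qa (-0.21, adjusted p = 2.37e-05), C1qb (-0.12, adjusted p = 0.00445) and C1qc (-0.09, adjusted p = 0.0293). The slopes left in that fit were 0.0079 and 0.012 in IL-4 and 0.052 and 0.055 in IL-4+CGRP. Length trend and group therefore cannot be told apart there, nor in the fit without IL-4+CGRP replicate 2 alone. C1qa also passed with no count filter (adjusted p = 0.023).

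**Figure D2:**
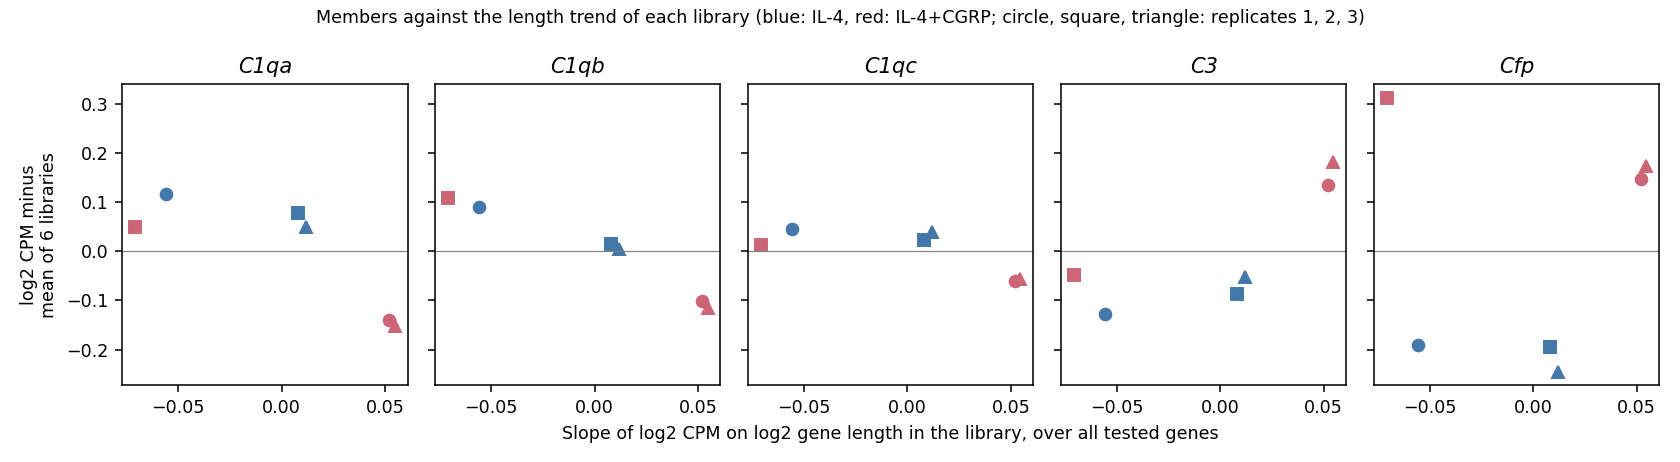
Log2 CPM of C1qa, C1qb, C1qc, C3 and Cfp in each library, minus the mean of the 6 libraries (vertical axis), against the slope of log2 CPM on log2 gene length in that library over all tested genes (horizontal axis). Blue points are IL-4 and red points IL-4+CGRP libraries. Every C1q chain was lowest in the 2 libraries with slopes of 0.052 and 0.055. Only C1qb was highest in the 2 with negative slopes, and Cfp was separated by group at both ends.

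The C1q genes are short and C3 is long. Their deposited lengths are 1040 bases for C1qa, 1088 for C1qb, 1203 for C1qc and 5136 for C3. The 2567 tested genes under 1500 bases had a median deviation from their 6-library mean of 0.14 (log2) in IL-4 replicate 1 and 0.13 in IL-4+CGRP replicate 2. The same genes were at -0.11 and -0.12 in IL-4+CGRP replicates 1 and 3. In those 4 libraries, in the same order, C1qb deviated by 0.09, 0.11, -0.10 and -0.11. C1qa deviated by 0.12, 0.05, -0.14 and -0.15, and C1qc by 0.045, 0.012, -0.061 and -0.057. In IL-4+CGRP replicate 2, C1qa and C1qc thus lay below IL-4 replicates 2 and 3, where C1qa was at 0.078 and 0.050 and C1qc at 0.024 and 0.038. For Cfp, of 1636 bases, the deviation was -0.19 in IL-4 replicate 1 and 0.31 in IL-4+CGRP replicate 2, the 2 libraries with the most negative slopes.

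The balance of the C1q chains was compared within libraries. The count ratio of C1qa to C1qb was 0.478, 0.491 and 0.485 with IL-4 alone, against 0.458, 0.451 and 0.458 with IL-4+CGRP, with no overlap. Its log2 value differed by -0.09 (exact permutation test, two-sided, p = 0.1, the smallest this design allows, adjusted p = 0.27 over 4 ratios). The log2 ratio of C1qa to C1qc also differed by -0.09 (exact permutation p = 0.2, adjusted p = 0.27), and that of C1qb to C1qc by -0.0015 (exact permutation p = 1). No ratio passed.

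Levels of different genes were compared per length, as CPM per kilobase of deposited gene length. In IL-4 the order was C1qb (2280 ± 74.5), C1qc (2063 ± 15.6), C1qa (1156 ± 26.6), C3ar1 (412 ± 9.77), C3 (323 ± 8.4), Cfp (211 ± 4.38), Cfb (127 ± 7.45), C5ar1 (83.1 ± 2.77) and C5ar2 (6.01 ± 0.155; SD, n = 3). No neighbours in this order overlapped. Of 13260 tested genes, 14 lay above C1qb, 122 above C3ar1, 180 above C3 and 7107 above C5ar2. In IL-4+CGRP the order was the same, but C3ar1 (383 ± 7.8) and C3 (366 ± 29.9) overlapped. The 9 genes together held 1.03% to 1.06% of all counts in each library.

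**Figure D3:**
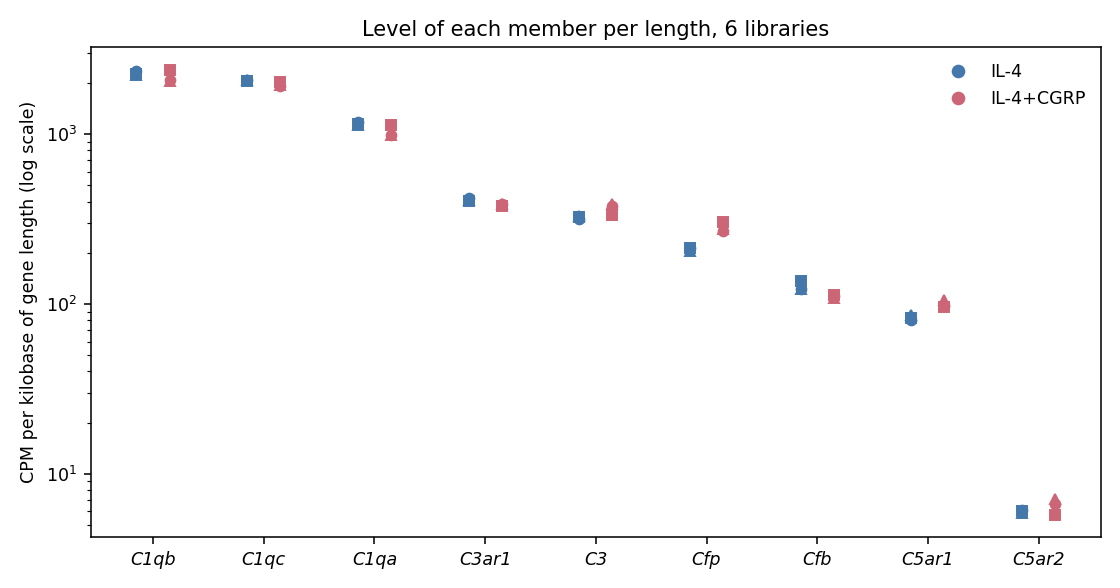
Level of each of the 9 genes per length, in CPM per kilobase (log axis), in each of the 3 IL-4 (blue) and 3 IL-4+CGRP (red) libraries. C1qb leads at a mean of 2280 in IL-4 and C5ar2 is last at 6.01, and the order of means is the same in both groups.

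**Figure D4:**
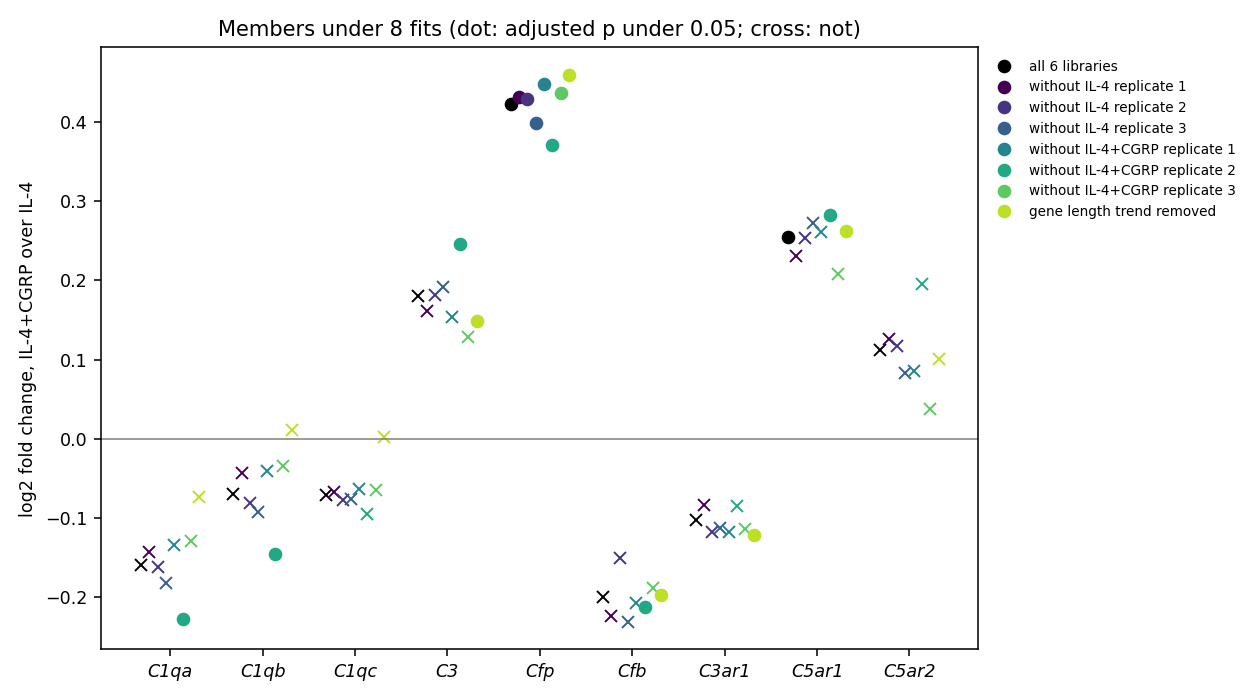
Log2 fold change of IL-4+CGRP over IL-4 (vertical axis) for each of the 9 genes in 8 fits: all 6 libraries, each library left out in turn, and the length trend removed. A dot marks an adjusted p under 0.05 and a cross one that is not. Cfp is a dot in every fit, C5ar1 in 3 of the 8, and the C1q values lie nearest 0 with the length trend removed.

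The 9 genes belong to a wider list of 59 complement genes, grouped by role, of which 29 were tested. Over the 29 tested, 3 rose and 2 fell, with a median log2 fold change of -0.06. Over all tested genes 2.32% were called higher and 1.54% lower, and 9.27% of those with a mean of at least 100 CPM were called in either direction. Leaving out the 9 genes, 20 of 50 were tested, 1 rose and 2 fell, and the median was -0.04. Those 3 are subunits of the integrins that serve as complement receptors for C3 fragments: Itgam, the alpha chain of complement receptor type 3, rose 1.33-fold (417 ± 9.71 to 554 ± 39 CPM; mean and SD, n = 3, with an edgeR adjusted p = 0.0012), and Itgax, the alpha chain of type 4, fell 2.37-fold (149 ± 3.91 to 62.9 ± 5.35 CPM; mean and SD, n = 3, with an edgeR adjusted p = 1.4e-06). The shared beta chain Itgb2 fell 1.12-fold (838 ± 9.28 to 751 ± 16.6 CPM; mean and SD, n = 3, with an edgeR adjusted p = 0.049). The Itgb2 call ended under 12 of 17 alternatives, among them DESeq2, limma-voom and the leaving out of any library but IL-4+CGRP replicate 2, whereas the Itgam and Itgax calls held in all 17. Some Itgam counts, like those of C5ar2, were not whole.

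The other receptors did not pass. Cd93, once described as a C1q receptor, measured 537 ± 18.9 and 506 ± 19.4 CPM (mean and SD, n = 3, with an edgeR adjusted p = 0.42). C1qbp, which encodes a C1q-binding protein, measured 31 ± 2.41 and 27 ± 2 CPM (mean and SD, n = 3, with an edgeR adjusted p = 0.26). Vsig4, a C3b receptor of tissue macrophages, was at 1.95 ± 0.348 and 2.22 ± 0.185 CPM (mean and SD, n = 3, with an edgeR adjusted p = 0.71). Cd93 passed as lower with the length trend removed (adjusted p = 0.038), and C1qbp without IL-4+CGRP replicate 2 (adjusted p = 0.038).

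In the rest of the classical pathway 0 of 4 tested genes passed. C1ra, a protease of the C1 complex, measured 22.7 ± 0.649 and 25.9 ± 2.28 CPM (mean and SD, n = 3, with an edgeR adjusted p = 0.29). C4b measured 15.4 ± 0.68 and 17.6 ± 1.13 CPM (mean and SD, n = 3, with an edgeR adjusted p = 0.31) and C2 9.76 ± 0.613 and 9.32 ± 1.1 CPM (mean and SD, n = 3, with an edgeR adjusted p = 0.82). C4a and C4b are near-identical copies, so the split of reads between them is uncertain. C1s1, the partner protease of C1ra, had 53 counts over all 6 libraries and was not tested.

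Of the lectin pathway, 2 of 8 genes were tested and 0 passed: the ficolin Fcna (log2 fold change -0.09 ± 0.14, SE; edgeR adjusted p = 0.81) and Masp1 (0.13 ± 0.22, SE; edgeR adjusted p = 0.82). Of the terminal pathway, which builds the membrane attack complex, 1 of 7 was tested, C8g, at 0.868 ± 0.337 and 0.712 ± 0.224 CPM (mean and SD, n = 3, with an edgeR adjusted p = 0.79). C5 itself, encoded by Hc, had 2 counts over all 6 libraries. Factor D (Cfd), the protease that activates factor B, had 0 counts in every library, where 3 counts would be 0.152 CPM at most. In all, 17 of the 59 listed genes had 0 counts in all 6 libraries.

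Of the regulators, 3 of 12 soluble and 4 of 8 membrane genes were tested and 0 passed. Serping1, the C1 inhibitor, and Clu (clusterin) were each below 2 CPM, with edgeR adjusted p = 0.98 and adjusted p = 0.90. Cr1l, which encodes the rodent regulator Crry, measured 73.8 ± 4.36 and 69.4 ± 3.9 CPM (mean and SD, n = 3, with an edgeR adjusted p = 0.55). The log2 fold changes of Cd59a and Cd55, which protect cells from complement, were -0.06 ± 0.26 and -0.06 ± 0.14 (SE; edgeR adjusted p = 0.93 and adjusted p = 0.87).

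**Figure D5:**
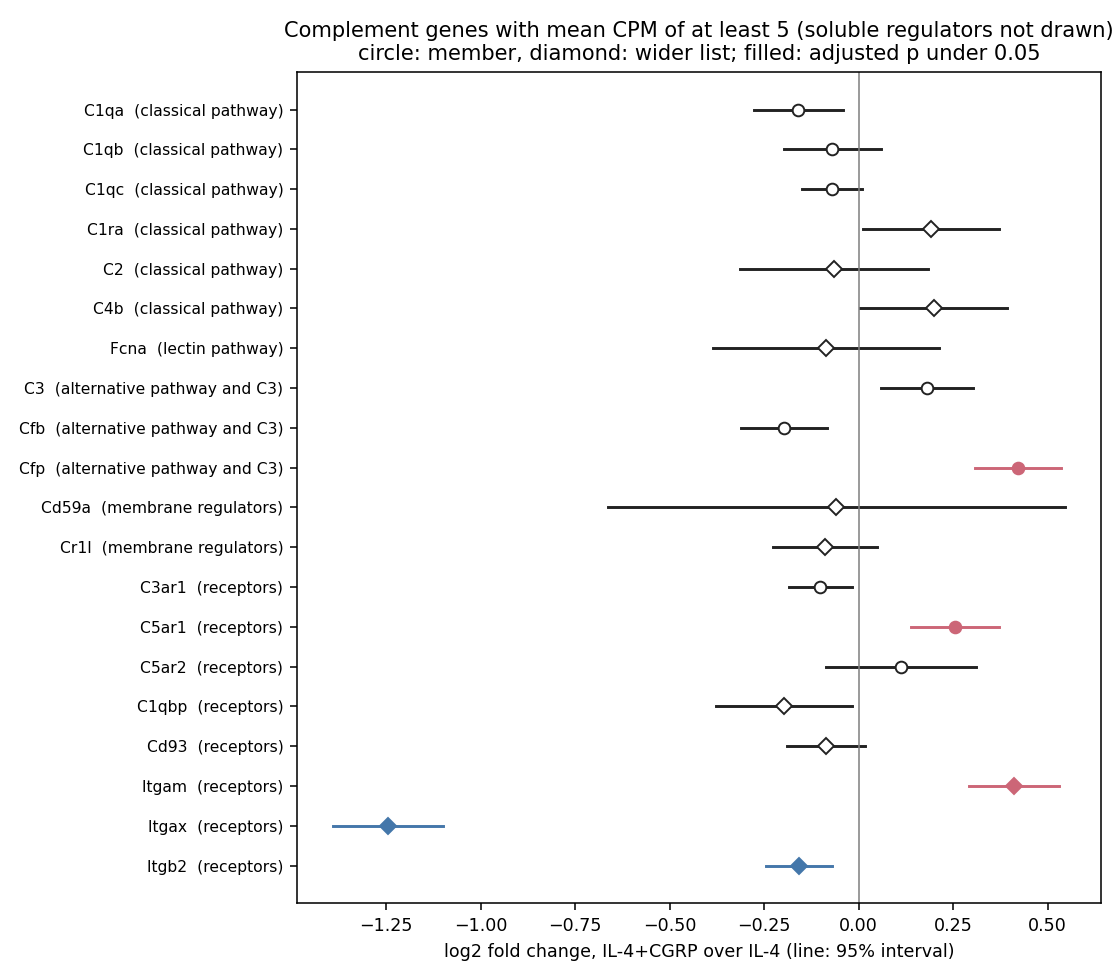
Log2 fold change of IL-4+CGRP over IL-4 with its 95% interval (horizontal axis) for the tested complement genes with a mean of at least 5 CPM, ordered by role, with soluble regulators not drawn. Circles are the 9 genes and diamonds the wider list, and filled symbols passed the edgeR test. Cfp, C5ar1 and Itgam are filled to the right of 0, and Itgax and Itgb2 to the left.

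Markers of other cell types were also measured, and their part in these results was not tested. Neutrophils also make properdin and carry C5aR1: their 9 markers summed to 38.6 to 48.8 CPM in IL-4 and 36.2 to 47.1 CPM in IL-4+CGRP, 0 of 7 tested passed, and Ly6g was at 0 in every library. Fibroblasts also make C3: their 7 markers summed to 43.6 to 46.8 CPM in IL-4 and 48.7 to 54.7 CPM in IL-4+CGRP. These sums did not overlap, and 0 of 6 tested passed. Of the hepatocyte markers, Alb, Apoa1, Ttr and Fgb were at 0 in every library. The 5 endothelial markers summed to 105 to 122 CPM in IL-4 and 144 to 164 CPM in IL-4+CGRP, without overlap, and Pecam1 and Kdr were called higher. The 5 markers of plasmacytoid dendritic cells summed to 642 to 823 and 597 to 853 CPM, with Siglech and Ccr9 called lower. Most of that sum was Bst2, at 615 ± 102 and 585 ± 146 CPM (SD, n = 3), whereas Siglech and Ccr9 were each below 5 CPM. Tcf4 went the other way without overlap, at 86.2 ± 4.35 and 99.7 ± 5.65 CPM (SD, n = 3), and did not pass (edgeR adjusted p = 0.096). Ly6d was lower without overlap, at 4.44 ± 0.453 and 2.86 ± 0.93 CPM (SD, n = 3), and did not pass (edgeR adjusted p = 0.16). The 6 erythroid and megakaryocyte markers summed to 39.9 to 42.0 CPM in IL-4 and 57.9 to 79.9 CPM in IL-4+CGRP, without overlap and with 0 of 2 tested called. Among them Pf4 measured 24.6 ± 2.61 and 49.0 ± 12.1 CPM (SD, n = 3), a 1.99-fold difference that did not pass in edgeR (adjusted p = 0.0592), and Hbb-bs was at 0. The 6 markers of mast cells, basophils and eosinophils summed to 4.46 to 6.78 and 3.06 to 4.18 CPM, without overlap and with 0 of 3 tested called. Those of conventional dendritic cells (21.6 to 24.4 and 15.7 to 22.3 CPM), B cells (31.4 to 34.4 and 29.9 to 32.6 CPM) and T and NK cells (4.21 to 4.79 and 3.11 to 4.33 CPM) overlapped between groups, with 0 called.

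The tested genes most like each of the 9 over the 6 libraries (Pearson r of log2 CPM, 8054 candidates with a mean of at least 10 CPM) are given as a description, since the 6 libraries share 2 groups and the length trend. For Cfp they were Cd300lf (r = 0.998), Glul (0.997) and Pgs1 (0.995), each called higher. For C5ar1 they were Snx29 (0.998), Hgsnat (0.997) and Sbno2 (0.994), of which Snx29 and Sbno2 were called higher. For C3 they were Trio (0.996), Tns3 (0.996) and Dock4 (0.996), and for Cfb they were Foxk2 (0.994), Itm2b (0.992) and Cers2 (0.991), with 0 of these 6 called. For C1qa they were Ociad1 (0.998), Speg (0.996) and Aldh1b1 (0.995), for C1qb Vmp1 (0.9997), Trex1 (0.999) and Tspo (0.999), and for C1qc Glrx3 (0.997), Arl1 (0.996) and Dok2 (0.995), with 0 of 9 called. For C3ar1 they were Thumpd1 (0.997), Atad1 (0.996) and Tmx4 (0.993), and for C5ar2 Llgl1 (0.982), Zfp148 (0.979) and Ganc (0.975).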

How the data were processed

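The authors deposited 1 table of estimated counts per gene in 6 library columns, with their mean of each group, used only to check the columns, and a length in bases per gene. The tools named in the submitters' processing notes are fastp, HISAT2 and StringTie, and the build GRCm39. The sources used here give neither their versions, nor the annotation, nor whether counting used the strand that the kit marks. Reads of overlapping genes may therefore be mixed. Per library, 23.3% to 26.6% of the values above 0 were not whole (tolerance 1e-06), and all were rounded before the tests.

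Genes were filtered with filterByExpr by group (13260 kept, with 99.9% of counts), scaled with TMM and tested with edgeR 4.0.16 in R 4.3.3 (two-sided quasi-likelihood test with robust dispersions and group as the only term, Benjamini-Hochberg over all tested genes, threshold 0.05). SEs were derived from each fold change and its F statistic. The length trend was a lowess curve of each library's deviations on log2 length, used as an offset. Alternatives were other scalings and filters, DESeq2 1.42.0, voom in limma 3.58.1, dispersions without the robust option, a replicate block, each library left out, and, added after seeing the data, the length trend removed and 2 libraries left out. Scripts were tested on simulated data. Pairs within a group were not duplicates (chi-square over degrees of freedom, 3.03 to 22.2).

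The 9 genes and the lists were chosen with earlier results of these data known. Genes named are the 9, called genes of the wider list, up to 3 others per role with the highest mean CPM, and the 3 tested genes most correlated with each of the 9 (mean of at least 10 CPM, no clone names). A gene of the wider list is not reported here.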

Additional observations from a re-analysis of the deposited data

How the results depend on the processing

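Over the 9 genes and the other 20 tested genes of the wider list, 436 of 486 alternative fits kept the direction and the side of the threshold. All genes called numbered 307 higher and 204 lower, against 584 and 434 with no count filter, 471 and 389 with the length trend removed, 1066 and 1187 without both IL-4 replicate 1 and IL-4+CGRP replicate 2, and 140 to 915 and 80 to 950 with each library left out (highest without IL-4+CGRP replicate 2). Of the calls, 60.1% were higher, and 71.2% with library totals alone. Of the 9 genes, 2 higher and 0 lower became 1 to 3 and 0 to 3 with each library left out. The count lower was 2 with no count filter, 2 with the length trend removed (Cfb and C3ar1) and 4 without the 2 libraries (C1qa, C1qb, C1qc and Cfb). In the wider list, the 2 lower became 1 with upper quartile factors, library totals alone, a mean count of at least 50, DESeq2, limma-voom or a fit that was not robust, 4 with no count filter, 5 with the length trend removed, 6 without the 2 libraries, and 1 to 6 with each library left out.

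Deviations of same-numbered libraries from their group means correlated at -0.19, -0.18 and 0.13. The highest value, 0.29, was between IL-4 replicate 1 and IL-4+CGRP replicate 2, the libraries of negative slope. Since the deviations carry the length trend, they cannot decide whether the replicate numbers pair the libraries. With the replicate block, 176 genes were higher and 86 lower, 1 of the 9 genes was higher and 1 of the wider list lower, and C5ar1 had an adjusted p = 0.073. Not every library correlated best with its own number.

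Log2 fold changes reversed, with 0 of these passing, for C1qb (0.011) and C1qc (0.0024) with the length trend removed. With each library left out, signs varied for C2 (-0.16 to 0.0030), Fcna (-0.23 to 0.018), Serping1 (-0.31 to 0.24), Clu (-0.22 to 0.36), Cd46 (-0.031 to 1.05) and Cd59a (-0.29 to 0.15), and the log2 ratio of C1qb to C1qc ran from -0.050 to 0.027. Serping1 also reversed with library totals alone (0.013), with the length trend removed (0.021) and without the 2 libraries (0.19). The cause of these changes was not tested. Depth limits the 5 tested genes of the wider list below 2 CPM (C4a, Cd46, C8g, Clu and Serping1), where SEs were 0.29 to 0.50.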
